A study of Mus musculus with 12 samples.

Results

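Immediate early genes of the Fos, Jun and Egr families, together with Ier2, were followed across 3 culture states of adult mouse neural stem cells (NSCs). The set held Fos, Fosb, Fosl1 and Fosl2, then Jun, Junb and Jund, and Egr1, Egr2 and Ier2, each matched by its symbol in the gene count table, so that 10 of 17365 listed genes were taken. All 10 passed the filter on low counts and were among the 13312 genes tested. NSCs from the subventricular zone of mice aged 6 to 8 weeks had been grown as adherent cultures, and RNA-seq was used to ask which transcripts separate dividing cells from cells made quiescent in 2 ways. The states were EGF/FGF (EGF and FGF2, 10 ng/ml of each, dividing cells), BMP (BMP4 alone, 10 ng/ml, for 3 days) and BMP/FGF (BMP4 and FGF2, 10 ng/ml of each, for 3 days). Each state was measured in 2 lines, ANS4 from MF1 mice and BL6 from C57BL/6 mice, with 2 replicates of each, which gave 12 libraries. The study calls these biological replicates. Each strain is represented by 1 line, so that a difference between lines cannot be told apart from a difference between strains.

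Immediate early genes are transcribed within minutes of a growth factor, calcium or stress signal, without new protein being made first, and their RNAs are short-lived. Fos and Jun proteins pair through leucine zippers to form AP-1, which binds DNA as a Fos-Jun or Jun-Jun dimer. Egr1 and Egr2 are zinc finger factors that bind GC-rich sites, and Ier2 is a small nuclear protein induced with them. Many of these genes respond to ERK signalling through serum response factor (SRF) and its Elk partners, and to cAMP and calcium through CREB.

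Fos, Fosb, Junb and Egr2 are shown here by the bases before their start sites because they were higher in both BMP states, and Jun because it was lower in both. RefSeq windows of GRCm38.p6 were matched for 7 of the 10 genes, with 11 windows in all since Egr2 has 5. The 250 bases before each start were searched on both strands for TGACG (the core of the site bound by CREB), for the CArG box bound by SRF, for GCGNGGGCG (the site of the Egr factors) and for TGANTCA (the AP-1 site). Another AP-1 form, TGACATCA, was added after the Jun window had been read. No match overlapped another. Fosl2 held GCGNGGGCG at -79, and the Jund window held none of these. The start site of that window, chr8:70697739, lies before the Jund gene model used here, which begins at 70698949. Its 250 bases are therefore not those directly before that gene model. Each stretch runs 5′ to 3′ from base -160 to base -11 relative to the start, with matches in capitals. The stretches lie at chr12:85473730-85473879 on the plus strand (Fos), chr7:19310056-19310205 on the minus strand (Fosb), chr8:84978759-84978908 on the minus strand (Junb), chr10:67537709-67537858 on the plus strand (Egr2, the third of its 5 windows) and chr4:95052233-95052382 on the minus strand (Jun).
Fos: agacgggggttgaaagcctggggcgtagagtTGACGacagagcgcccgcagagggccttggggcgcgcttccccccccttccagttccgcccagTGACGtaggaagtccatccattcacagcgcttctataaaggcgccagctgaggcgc
Fosb: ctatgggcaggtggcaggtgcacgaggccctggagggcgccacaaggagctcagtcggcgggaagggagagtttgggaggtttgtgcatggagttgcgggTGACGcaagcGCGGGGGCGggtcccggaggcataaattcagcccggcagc
Junb: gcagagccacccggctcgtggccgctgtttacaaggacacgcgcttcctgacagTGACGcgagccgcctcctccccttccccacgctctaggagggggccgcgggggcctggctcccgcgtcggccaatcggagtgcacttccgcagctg
Egr2: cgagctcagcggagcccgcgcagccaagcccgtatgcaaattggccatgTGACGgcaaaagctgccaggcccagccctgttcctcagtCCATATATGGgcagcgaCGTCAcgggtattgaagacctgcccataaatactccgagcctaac
Jun: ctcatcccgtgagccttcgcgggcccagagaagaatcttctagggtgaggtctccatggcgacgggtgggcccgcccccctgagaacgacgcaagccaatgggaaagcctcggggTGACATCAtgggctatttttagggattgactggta

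TGACG stood at -129 and -66 in the Fos window, at -60 in Fosb, at -106 in Junb, and in the Egr2 window at -111 and, on the other strand, at -55. The Egr2 stretch also held a CArG box at -72, and Fosb held GCGNGGGCG at -50. TGACG was in windows of 4 of the 7 genes, the CArG box in 1 and TGANTCA in none. Egr2 was counted if any of its 5 windows held a match, so it had more chances than a gene with 1 window. Its window 1, the nearest to the start of its gene model, held none of the motifs. Window 2 held a CArG box at -72 but no TGACG. Windows 3, 4 and 5 held both, and these overlap one another. In the Jun window TGACATCA began at -45, and none of the other motifs was found. Of 32851 windows of the same length in the annotation, 17.8% held TGACG, 1.47% the CArG box, 4.7% GCGNGGGCG, 6.75% TGANTCA and 2.93% TGACATCA. These shares are per window and do not apply directly to Egr2, which was counted over 5 windows. A window without a match says only that these letters are not in those 250 bases.

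Library totals ran from 18069052 to 19451818 counts. Neural stem cell markers were present in every state but moved in both directions. Of the 12 listed, 7 were higher and 5 lower than in EGF/FGF, in BMP and in BMP/FGF alike. Sox2, among those that were higher, stood at a mean of 477 CPM (a gene's counts per 1000000 counts of its library) in EGF/FGF, 702 in BMP and 661 in BMP/FGF. Summed over 6 proliferation genes the level was 1990 to 2440 CPM in EGF/FGF, 300.0 to 498 with BMP4 alone and 198 to 216 with BMP4 plus FGF2. Markers of young neurons moved with BMP: 9 of 9 were in the table, and their sum was 34.8 to 40.1 CPM in EGF/FGF, 380.0 to 810.0 with BMP4 alone and 139 to 155 with BMP4 plus FGF2, with the mature neuron genes Rbfox3 and Stmn2 at or under 0.325 on average. For the oligodendrocyte markers, 7 of 7 listed, the sum lay between 194 and 230.0 CPM in EGF/FGF, 633 to 694 with BMP4 alone and 687 to 725 with BMP4 plus FGF2, with Cnp at means of 182, 497 and 453, while Mog and Sox10 were at or under 0.378 on average. Ependymal markers (4 of 5 listed) went from 62.1 to 81.2 CPM up to 190.0 to 227 and 185 to 197, mostly from Foxj1. Endothelial and mural markers (5 of 7) went from 40.8 to 48.5 CPM down to 8.7 to 12.6 and 19.3 to 23.9. That fall came from Flt1, at means of 39.7, 4.88 and 14.6 CPM, while of 4 tested 2 rose and 1 fell in either BMP state. The part of these cells in the results below was not tested. Microglial markers stayed near 0 for Csf1r and Tmem119, each at or under 0.0677 CPM on average in every state, while the sum over the 6 of 12 listed markers in the table was 55.3 to 82.5 CPM. In cultures measured in bulk, fewer cells of a type and less RNA per cell cannot be told apart.

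The BL6 BMP libraries stood apart from each other, and a pair cannot show which of them deviates. All 10 genes were higher in replicate 2 than in replicate 1 there, with a median difference of 0.23 on the log2 CPM scale against -0.00 over all tested genes. The most uneven were Ier2 at 0.47 and Jund at 0.46, apart from Fosl1, which had 0 counts in one library and 1 in the other. Over all genes the counts of that pair differed by 12.4 times the sampling noise (chi-square per degree of freedom), against 2.14 to 4.76 in the other 5 pairs. Of 36 other immediate early genes, 26 were also higher in replicate 2, whereas 4 of 11 heat shock genes were. Over all genes, 1201 line differences in BMP against EGF/FGF were called with both libraries, 2441 without replicate 1 and 1323 without replicate 2. Results that rest on either library are given with and without it. Without replicate 1 the changes in BMP against EGF/FGF were 2.17 for Fos, 2.53 for Fosb, 1.81 for Junb, 1.41 for Egr2, -1.37 for Jun and -0.29 for Egr1 (log2), all still called. Without replicate 2 the changes in BMP against EGF/FGF were 2.13 for Fos, 2.45 for Fosb, 1.71 for Junb, 1.38 for Egr2, -1.39 for Jun and -0.38 for Egr1 (log2), all still called.

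**Figure D1:**
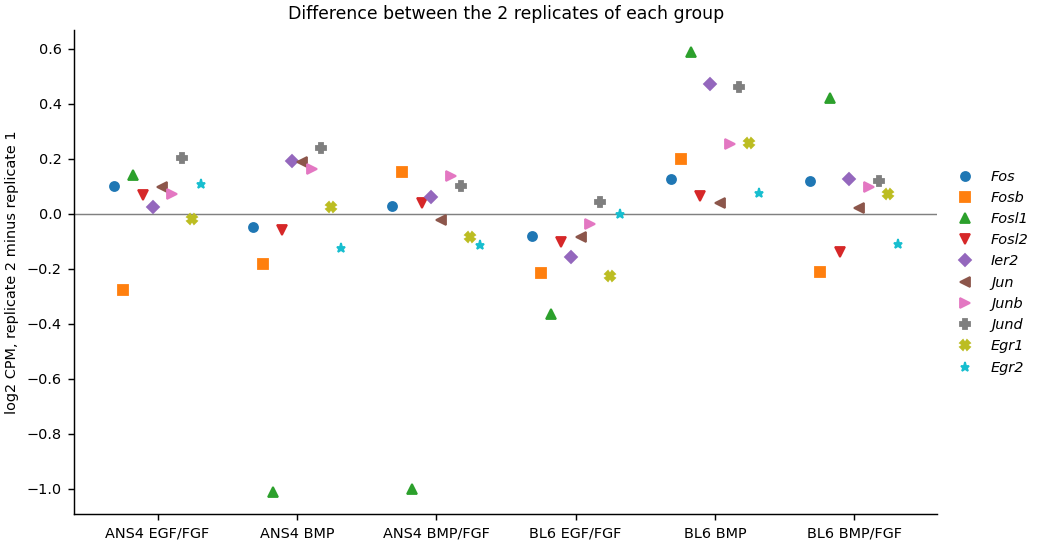
Difference in log2 CPM between replicate 2 and replicate 1 (vertical axis) for each of the 10 genes (symbols) in the 6 pairs of line and state (horizontal axis). All 10 symbols lie above 0 in the BL6 BMP pair, and the 2 lowest points are Fosl1 at 10 counts or fewer.

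Quiescence did not move these genes as a block. In BMP against EGF/FGF, Fos, Fosb, Junb, Egr2, Ier2 and Jund rose (6 of 10) and Fosl1, Jun and Egr1 fell (3 of 10), with Fosl2 not past the threshold of a Benjamini-Hochberg adjusted p of 0.05 in edgeR's quasi-likelihood test. With so strong a contrast most genes move: 79.6% of all tested genes were called in either direction, 40.8% higher and 38.8% lower, so that the number of genes called is close to the background. The median size of the change, whatever its direction, was 1.34 (log2) for the 10 genes and 0.61 over all genes. The median change was 0.42, beside 0.02 over all genes, and Fosl1 is the lowest value of the 10 however its few BMP counts are scored. Against EGF/FGF, 4 rose and 3 fell in BMP/FGF, where 78.9% of all genes were called, 40.9% higher and 38.0% lower, and the median was 0.23 against 0.02. The contrasts share the EGF/FGF libraries and are not independent of each other.

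**Figure D2:**
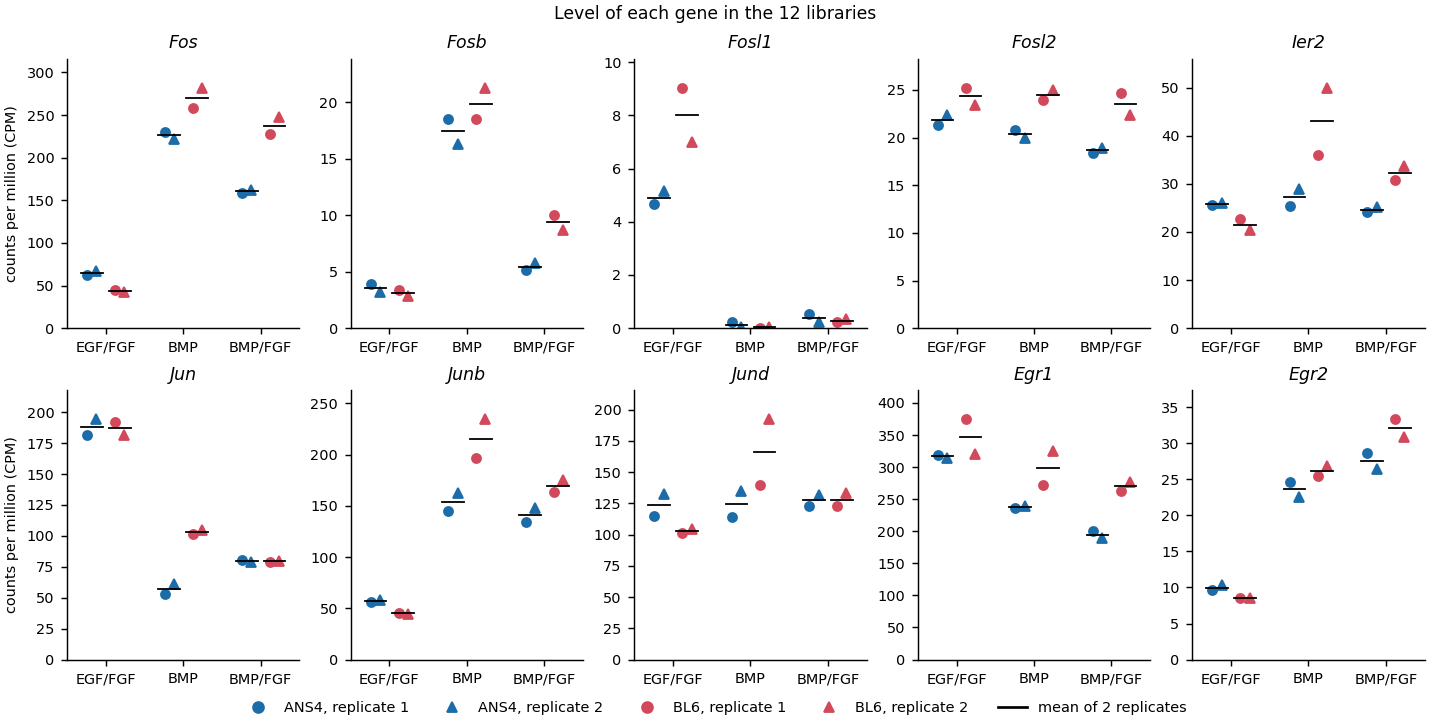
Level of each gene in CPM (vertical axis, from 0) in the 3 states (horizontal axis), with ANS4 in blue, BL6 in red, circles for replicate 1, triangles for replicate 2 and black lines for the mean of the 2 replicates. Fos, Fosb, Junb and Egr2 are higher in all 8 BMP and BMP/FGF libraries than in any EGF/FGF library, while Jun and Fosl1 are lower in all 8.

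Fos (chr12:85473890-85477273, plus strand, a gene of 4 exons) encodes the founding Fos subunit of AP-1. In EGF/FGF it stood at 62.3 and 66.9 CPM in ANS4 and at 44.4 and 42.0 in BL6. In BMP it stood at 230.0 and 222 CPM in ANS4 and at 258 and 282 in BL6, and in BMP/FGF at 159 and 162 in ANS4 and at 228 and 247 in BL6. Every BMP and BMP/FGF library was thus above every EGF/FGF library, by more than any pair of replicates differed. The rise was 4.5-fold in BMP (log2 2.17 ± 0.16 SE, adjusted p = 6.75e-10) and 3.72-fold in BMP/FGF (log2 1.90 ± 0.16, adjusted p = 4.78e-09).

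Fosb, at chr7:19302696-19310051 on the minus strand, encodes a Fos subunit whose short splice form persists in neurons. Its levels in EGF/FGF were 3.88 and 3.19 CPM in ANS4 and 3.34 and 2.87 in BL6. BMP libraries held 18.5 and 16.3 CPM in ANS4 and 18.5 and 21.3 in BL6. With FGF2 added to BMP4 they held 5.14 and 5.73 CPM in ANS4 and 10.0 and 8.67 in BL6. Fosb therefore had 3 separate levels, low in EGF/FGF, intermediate in BMP/FGF and high in BMP, with no overlap between any of them. It rose 5.52-fold in BMP (log2 2.47 ± 0.16, adjusted p = 1.34e-10), the largest rise of the 10 genes, and 2.23-fold in BMP/FGF (log2 1.16 ± 0.17, adjusted p = 8.6e-06).

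Fosl1 encodes Fra-1, a Fos subunit without the transactivation domain of Fos that is known as a target of sustained ERK signalling. It lies at chr19:5447547-5455946 on the plus strand, where the annotation also places Ccdc85b, and reads of overlapping genes may be shared out between them. EGF/FGF libraries held 90 and 100 counts in ANS4 and 173 and 134 in BL6, or 4.65 to 9.03 CPM. BMP libraries held 4 and 1 counts in ANS4 and 0 and 1 in BL6, where a count of 0 allows up to 3 counts, or 0.16 CPM, and BMP/FGF libraries held 10, 4, 4 and 6. The fall was nearly complete: 6 counts over the 4 BMP libraries against 497 over the 4 EGF/FGF libraries, a ratio of 0.0127 (exact 95% interval 0.00462 to 0.0277, counting error only). In BMP/FGF the ratio was 0.0503 (0.0319 to 0.0757). Both falls were called (adjusted p = 7.41e-11 and 5.43e-10).

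Fosl2, which encodes Fra-2, was the family member that was not called in either state. Its lowest, median and highest levels were 21.4, 22.9 and 25.2 CPM in EGF/FGF, 19.9, 22.3 and 25.0 in BMP and 18.4, 20.7 and 24.7 in BMP/FGF, so that the 3 states overlapped. The change in BMP was -0.07 (log2, 95% interval -0.23 to 0.09, adjusted p = 0.419), and in BMP/FGF -0.11 (-0.27 to 0.05, adjusted p = 0.188). Within ANS4 alone it was lower in BMP/FGF (log2 -0.22, adjusted p = 0.0386), where the libraries did not overlap, and within BL6 the change was 0.00 (adjusted p = 1.0).

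Jun, a gene of 1 exon at chr4:95049034-95052222 on the minus strand, encodes c-Jun, the main transactivating partner in AP-1. It overlaps the annotated antisense gene Junos, and no source used here states that counting used strand. EGF/FGF libraries stood at 182 and 194 CPM in ANS4 and at 192 and 181 in BL6. In BMP they stood at 53.3 and 60.8 CPM in ANS4 and at 102 and 105 in BL6, and in BMP/FGF at 80.2, 79.0, 78.8 and 80.0. All 8 were below every EGF/FGF library, and the 4 BMP/FGF libraries lay between 78.8 and 80.2 CPM. Jun fell to 0.411 of its EGF/FGF level in BMP (log2 -1.28 ± 0.13, adjusted p = 3.43e-08) and to 0.431 in BMP/FGF (log2 -1.21 ± 0.13, adjusted p = 7.18e-08).

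Junb moved the opposite way. This gene of 1 exon, whose annotated span (chr8:84974484-84978718, minus strand) overlaps Prdx2, encodes a Jun subunit known to counter c-Jun at several promoters and to restrain the cell cycle. It stood at 55.7 and 58.5 CPM in ANS4 and at 45.8 and 44.7 in BL6 in EGF/FGF. The BMP libraries held 145 and 162 CPM in ANS4 and 197 and 234 in BL6, and the BMP/FGF libraries 135 and 148 in ANS4 and 163 and 175 in BL6. Again no BMP or BMP/FGF library reached down to the EGF/FGF range. Junb rose 3.51-fold in BMP (log2 1.81 ± 0.12, adjusted p = 2.12e-10) and 3.06-fold in BMP/FGF (log2 1.61 ± 0.12, adjusted p = 1.06e-09).

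Jund, a gene of 1 exon at chr8:70698949-70700616 on the plus strand that overlaps Gm11175, encodes the Jun subunit that is made more or less constantly in most cells. It stood at 115 and 133 CPM in ANS4 and at 101 and 104 in BL6 in EGF/FGF. In BMP it stood at 114 and 135 CPM in ANS4 and at 140.0 and 192 in BL6, and in BMP/FGF at 123, 132, 123 and 133. The ranges of the 3 states overlapped, while within BL6 the BMP libraries were above the EGF/FGF ones. Its call in BMP was weak and rested on single libraries (log2 0.33 ± 0.12, adjusted p = 0.0142). Without the second BL6 BMP library the change was 0.17 (adjusted p = 0.0752), without the first BL6 EGF/FGF library 0.26 (adjusted p = 0.0649) and without the second 0.27 (adjusted p = 0.0605). In BMP/FGF its change was 0.20 (adjusted p = 0.129), which passed the threshold without the second ANS4 EGF/FGF library (0.30, adjusted p = 0.0249) and without the second BL6 BMP library (0.20, adjusted p = 0.0304).

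Levels of different genes can be compared only per length, and here CPM was divided by the length of each gene's longest coding transcript (CPM per kb). Of the summed Fos family level, Fos made up 68.7 to 81.9% in the EGF/FGF libraries, 93.0 to 93.5% with BMP4 alone and 94.3 to 95.2% with BMP4 plus FGF2. The share of Fosl1 was 6.87 to 15.8% in EGF/FGF, 0.101% or less with BMP4 alone and 0.102 to 0.359% with BMP4 plus FGF2. With the median transcript length in place of the longest, the EGF/FGF shares were up to 23.9% for Fosl1 and 62.0 to 78.0% for Fos. In the Jun family Jun and Junb changed places. Jun made up 35.3 to 41.2% of the family in EGF/FGF, 10.1 to 14.2% with BMP4 alone and 12.4 to 14.5% with BMP4 plus FGF2, while Junb went from 17.1 to 19.6% to 46.7 to 48.4% and 42.9 to 47.9%. Jund made up 37.4 to 46% throughout. The ratio of Junb to Jun per kb was 0.42 to 0.54 in EGF/FGF, 3.41 to 4.78 with BMP4 alone and 2.96 to 3.85 with BMP4 plus FGF2, without overlap between the growth state and either quiescent state. The summed Fos family level rose from a mean of 33.4 CPM per kb to 126 in BMP and 99.8 in BMP/FGF, whereas the Jun family sum was 155, 214 and 187.

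**Figure D3:**
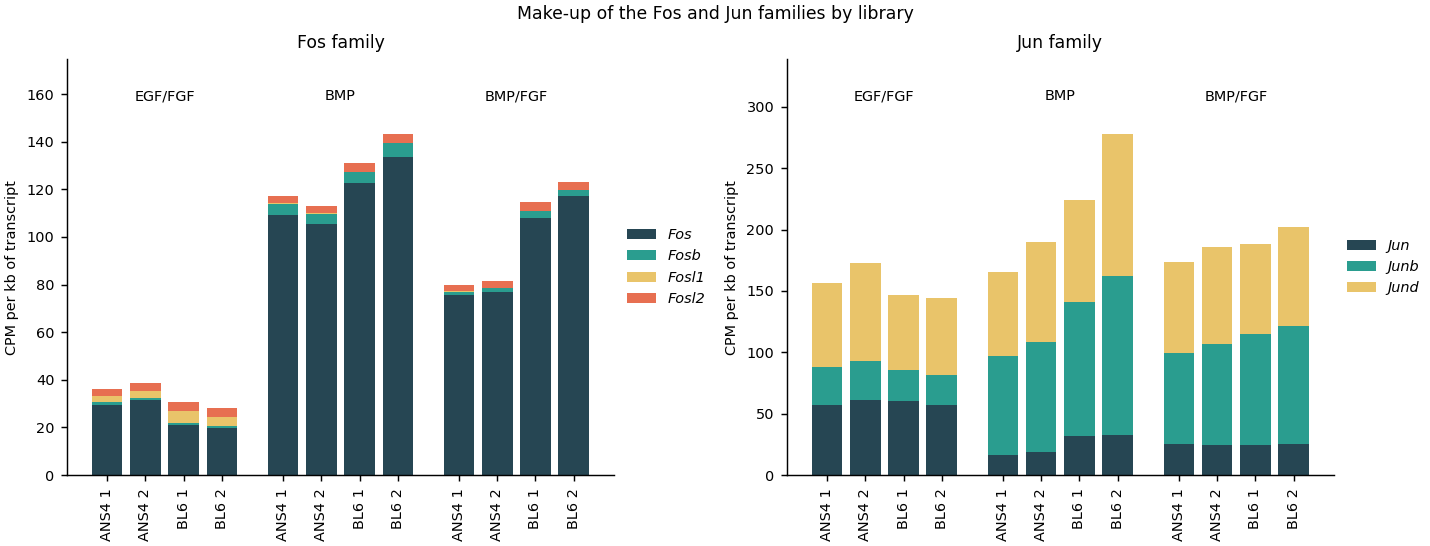
Stacked bars of the level of each Fos family gene (left) and Jun family gene (right) in CPM per kb of the longest coding transcript (vertical axis, from 0) in each of the 12 libraries (horizontal axis). Fos fills most of every left bar, with the Fosl1 band visible in EGF/FGF alone, and the Junb band widens as the Jun band narrows in BMP and BMP/FGF.

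The Egr pair also split. Egr1, known as an early readout of ERK activity, had the highest mean level per kb of the 10 genes in EGF/FGF. Its levels there were 319 and 315 CPM in ANS4 and 374 and 320 in BL6. In BMP they were 236 and 240 CPM in ANS4 and 272 and 325 in BL6, and in BMP/FGF 200 and 189 in ANS4 and 263 and 277 in BL6. The ANS4 BMP libraries were lower than the EGF/FGF ones, whereas the second BL6 BMP library lay inside the EGF/FGF range. Egr1 fell to 0.792 of its EGF/FGF level in BMP (log2 -0.34 ± 0.08, adjusted p = 0.000949), and to 0.704 in BMP/FGF (log2 -0.51 ± 0.08, adjusted p = 1.63e-05), where no libraries overlapped.

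Egr2, at chr10:67535475-67542188 on the plus strand, encodes Krox20, known for hindbrain segmentation and myelination. It stood at 9.62 and 10.4 CPM in ANS4 and at 8.56 and 8.55 in BL6 in EGF/FGF. In BMP it stood at 24.6 and 22.6 CPM in ANS4 and 25.4 and 26.8 in BL6, and in BMP/FGF at 28.6, 26.5, 33.3 and 30.9. Every BMP and BMP/FGF library was above every EGF/FGF library. The rise was 2.64-fold in BMP (log2 1.40 ± 0.10, adjusted p = 2.96e-10) and 3.26-fold in BMP/FGF (log2 1.71 ± 0.10, adjusted p = 1.8e-11). Per kb, Egr1 was 20 to 28.9 times as high as Egr2 in EGF/FGF, 6.33 to 8.02 times with BMP4 alone and 4.62 to 5.93 times with BMP4 plus FGF2. These ratios rest on the longest coding transcripts. With the median length the means of Egr1 and Egr2 were 88.3 and 10.3 CPM per kb in EGF/FGF, 71.3 and 27.6 in BMP, and 61.7 and 33.1 in BMP/FGF, so that the ratios were lower in every state.

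Ier2, a gene of 1 exon at chr8:84661331-84662852 on the minus strand, ranged from 20.3 to 26.0 CPM in EGF/FGF, from 25.3 to 50.0 in BMP and from 24.1 to 33.6 in BMP/FGF. Its rise in BMP was 1.43-fold (log2 0.52 ± 0.15, adjusted p = 0.00345), with the higher values in BL6. BL6 BMP libraries held 36.0 and 50.0 CPM against 22.7 and 20.3 in EGF/FGF, while ANS4 held 25.3 and 29.0 against 25.5 and 26.0. Without the second BL6 BMP library the change was 0.35 (adjusted p = 0.0176). In BMP/FGF the change was 0.27 (adjusted p = 0.1), and it passed the threshold without the first or the second ANS4 EGF/FGF library (0.36, adjusted p = 0.0444, and 0.37, adjusted p = 0.0333) or without the second BL6 BMP library (0.28, adjusted p = 0.0373).

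Adding FGF2 to BMP4 lowered Fosb and raised Egr2. In BMP/FGF against BMP, Egr2 and Fosl1 were higher (2 of 10) and Fosb was lower (1 of 10), where 41.4% of all tested genes were called, 20.1% higher and 21.3% lower, so that 3 of 10 is not above the background. Fosb fell to 0.405 of its BMP level (log2 -1.31 ± 0.15, adjusted p = 2.11e-06), and all 4 BMP/FGF libraries lay below all 4 BMP libraries. Egr2 rose 1.24-fold (log2 0.31 ± 0.09, adjusted p = 0.0104), and its ranges overlapped over both lines but not within either line. Fosl1 had 24 counts in BMP/FGF against 6 in BMP, a ratio of 3.97 (exact 95% interval 1.58 to 11.9). That call (adjusted p = 0.029) was lost without the second ANS4 BMP library (adjusted p = 0.0542), the first or second BL6 BMP library (0.0912 and 0.0846) or the first ANS4 BMP/FGF library (0.105). The median change of the 10 genes was -0.15, beside -0.00 over all genes. Fos libraries in BMP/FGF were below those in BMP within each line but not across lines, and the change was -0.28 (95% interval -0.59 to 0.04, adjusted p = 0.155), Junb -0.20 (-0.44 to 0.05, adjusted p = 0.19), Jun 0.07 (-0.20 to 0.34, adjusted p = 0.693) and Egr1 -0.17 (-0.34 to -0.00, adjusted p = 0.0998). The Egr1 change was called without the first BL6 BMP library (-0.22, adjusted p = 0.0447) and with library size only as scaling (-0.22, adjusted p = 0.0321), and the Fos change with only the 8 libraries compared (-0.29, adjusted p = 0.00951).

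Within single lines more of the genes were called. In BL6, 5 of 10 were lower in BMP/FGF than in BMP, Fosb, Jun, Junb (log2 -0.27 ± 0.08, adjusted p = 0.0122), Ier2 (-0.33 ± 0.12, adjusted p = 0.0305) and Jund (-0.29 ± 0.11, adjusted p = 0.0432), and Egr2 and Fosl1 were higher. In ANS4, 3 of 10 were lower, Fosb, Fos and Egr1 (-0.28 ± 0.08, adjusted p = 0.0146), and Jun was higher. These calls came from the fit of all 12 libraries, for which no share over all genes is given, so their number has no like background. Separate fits to the libraries of 1 line alone called 5402 of all 13312 tested genes in BL6, 2598 of them higher. In ANS4 they called 4790, 2315 of them higher. In the BL6 fit of that kind, Ier2 and Jund were not called, so that 3 of the 10 genes were lower. For Junb, Ier2, Jund and Egr1 the difference between the lines in this contrast was not called (adjusted p = 0.396, 0.495, 0.183 and 0.231). It was called without the first BL6 BMP library for Junb (-0.28), Jund (-0.55) and Ier2 (-0.42), and without the second for Egr1 (0.36).

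Jun held opposite changes in the lines behind its pooled value near 0. In ANS4 it was higher in BMP/FGF than in BMP (log2 0.49 ± 0.07, adjusted p = 6.34e-05), and in BL6 it was lower (log2 -0.30 ± 0.07, adjusted p = 0.00244). The test of the difference itself, the change in BL6 minus that in ANS4, gave -0.78 ± 0.10 (adjusted p = 0.000177). Fos fell in ANS4 (log2 -0.49 ± 0.07, adjusted p = 2.63e-05), while in BL6 it showed -0.10 ± 0.07 (adjusted p = 0.22), a difference between lines of 0.38 ± 0.10 (adjusted p = 0.0125). Fosb fell in both, to 0.313 of its BMP level in ANS4 and to 0.498 in BL6, a log2 difference of 0.67 ± 0.19 (adjusted p = 0.0275). These were the 3 of 10 genes whose lines differed in this contrast, where 13.5% of all genes were called. Without the second BL6 BMP library they were -0.76 for Jun, 0.45 for Fos and 0.77 for Fosb, all called, and without the first -0.80, 0.32 and 0.57, all called. The Fos call was lost without the first ANS4 BMP/FGF library (0.36, adjusted p = 0.0675) or the second BL6 one (0.32, adjusted p = 0.0917). The Fosb call was lost without the first ANS4 BMP library (0.56), the first or second ANS4 BMP/FGF library (0.58 and 0.75) or the first BL6 BMP/FGF library (0.55). In all of these fits fewer line differences were called over all genes too. Without the first BL6 BMP library, Junb (-0.28, adjusted p = 0.047), Jund (-0.55, adjusted p = 0.0029) and Ier2 (-0.42, adjusted p = 0.0304) were called as well, and without the second Egr1 was (0.36, adjusted p = 0.0219).

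The lines also differed in their response to BMP4 alone. The change in BMP against EGF/FGF was more positive in BL6 than in ANS4 for Fos, Jun, Junb, Jund and Ier2 (5 of 10), and more negative for none, where 9.02% of all genes were called in either direction. Fos rose 6.11-fold in BL6 and 3.5-fold in ANS4, a log2 difference of 0.80 ± 0.10 (adjusted p = 0.000109). Junb rose 4.65-fold in BL6 and 2.68-fold in ANS4 (difference 0.79 ± 0.12, adjusted p = 0.00068). Jun fell in both lines, to 0.539 of its EGF/FGF level in BL6 and to 0.303 in ANS4 (difference 0.83 ± 0.10, adjusted p = 7.36e-05). Ier2 rose in BL6 alone among the within-line tests, 1.95-fold, against 1.05-fold in ANS4 (adjusted p = 0.604 there), and the lines differed by 0.89 ± 0.18 (adjusted p = 0.00498). Jund showed 1.58-fold in BL6 and 1.01-fold in ANS4 (difference 0.65 ± 0.16, adjusted p = 0.0185).

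All 5 calls held without the first BL6 BMP library, with differences of 0.87 for Fos, 0.85 for Jun, 0.92 for Junb, 0.86 for Jund and 1.11 for Ier2. They also held without the second, with 0.74 for Fos, 0.81 for Jun, 0.66 for Junb, 0.40 for Jund (adjusted p = 0.0391) and 0.63 for Ier2. The Jund call was lost without the second ANS4 EGF/FGF library (0.54, adjusted p = 0.102), the first or second BL6 EGF/FGF library (0.63 and 0.67, adjusted p = 0.0714 and 0.06) or the first ANS4 BMP library (0.54, adjusted p = 0.0867), and with only the 8 libraries compared (0.64, adjusted p = 0.057). In the fits that lost the Jund call, fewer line differences were called over all genes too. Markers of other cells and of division differed between the lines as well. In BMP the 9 young neuron markers summed to 380.0 and 383 CPM in the ANS4 libraries and to 801 and 810.0 in the BL6 ones, and the 6 proliferation genes to 300.0 and 320.0 against 441 and 498. All 7 of the young neuron markers that were tested were higher in BL6 than in ANS4 in BMP. The part of these cells in the levels of the immediate early genes was not tested.

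**Figure D4:**
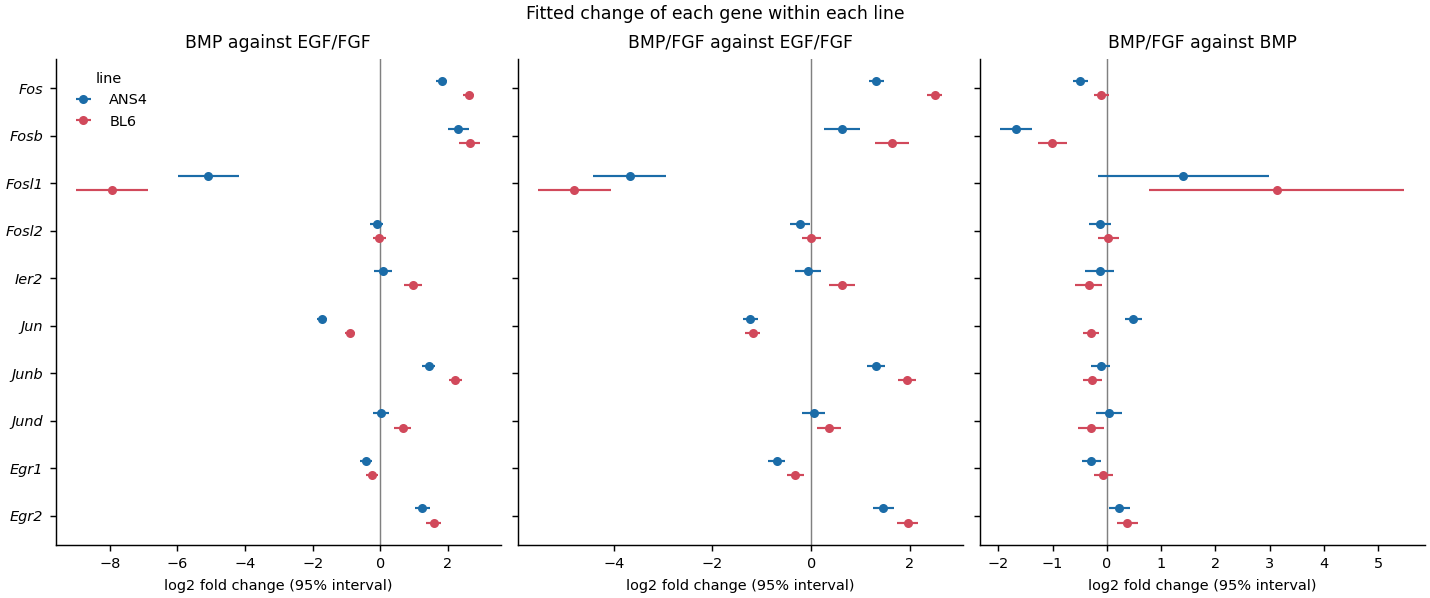
Fitted log2 fold change (horizontal axis) of each gene (vertical axis) in ANS4 (blue) and BL6 (red) for the 3 contrasts, with bars for the 95% interval and n = 2 libraries per line and state. For Fos, Jun, Junb, Jund and Ier2 the red and blue intervals are apart in the left panel. Those of Fosl1 are drawn apart there too, but they rest on very few BMP counts. The exact 95% intervals of its count ratio, counting error only, overlap: 8.44e-05 to 0.0188 in BL6 and 0.00904 to 0.0669 in ANS4. The line difference of Fosl1 was not called (adjusted p = 0.196 in edgeR's quasi-likelihood test). For Jun the intervals lie on opposite sides of 0 in the right panel.

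For BMP/FGF against EGF/FGF, 4 of 10 genes had a more positive change in BL6 and none a more negative one, where 4.98% of all genes were called. Fos rose 5.68-fold in BL6 and 2.5-fold in ANS4, which had the lowest adjusted p of the line differences (1.19 ± 0.10, adjusted p = 4.61e-06). Junb rose 3.86-fold and 2.49-fold (difference 0.63 ± 0.12, adjusted p = 0.00704). Fosb rose 3.11-fold and 1.54-fold (difference 1.01 ± 0.25, adjusted p = 0.025). Ier2 showed 1.55-fold and 0.959-fold (difference 0.69 ± 0.18, adjusted p = 0.0338). The last call was lost without any 1 of the 8 libraries compared (0.61 to 0.78, adjusted p = 0.0761 to 0.152), and that of Fosb without any of 6 of them (0.87 to 1.13, adjusted p = 0.0623 to 0.117), those being the first ANS4 and both BL6 EGF/FGF libraries, both ANS4 BMP/FGF libraries and the first BL6 BMP/FGF library. Junb lost its call without the first ANS4 BMP/FGF library (0.55, adjusted p = 0.0549) or the second BL6 one (0.58, adjusted p = 0.0555). In each of the fits that lost a call, fewer line differences were called over all genes too. Egr1 and Egr2 missed the threshold (0.38 and 0.49, adjusted p = 0.0686 and 0.0638). Both passed it without either BL6 BMP library, which is not among the libraries compared. Their differences were then still 0.38 and 0.49, and calls over all genes rose as well. Egr1 also passed it without the first BL6 EGF/FGF library (0.50). Young neuron markers summed to 154 and 155 CPM in the ANS4 BMP/FGF libraries and to 139 and 146 in the BL6 ones, and none of the 7 tested had a line difference that was called.

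The lines were also set against each other within a state, with alternatives for this comparison that were chosen after seeing the data. In EGF/FGF, 2 of 10 genes were lower in BL6 than in ANS4, Fos (log2 -0.59 ± 0.07, adjusted p = 0.000132) and Junb (log2 -0.35 ± 0.09, adjusted p = 0.0291), where 6.75% of all genes were called. In BMP, 6 of 10 were higher in BL6 (Jun, Ier2, Junb, Jund, Egr1 and Fos, by 0.21 to 0.81), where 23.0% were called. In BMP/FGF, 3 of 10 were higher in BL6, Fos (0.59 ± 0.07, adjusted p = 0.000213), Egr1 (0.50 ± 0.08, adjusted p = 0.00625) and Fosb (0.81 ± 0.15, adjusted p = 0.0141), where 0.736% of all genes were called. The 6 calls in BMP became 3 without the second BL6 BMP library, when Fos (0.14, adjusted p = 0.14), Jund (0.12, adjusted p = 0.392) and Egr1 (0.15, adjusted p = 0.193) were lost, and also 3 without the first ANS4 BMP library. They became 4 without the second ANS4 BMP library. In EGF/FGF the Junb call was lost without any 1 of the 4 EGF/FGF libraries (adjusted p = 0.0774 to 0.215), and in BMP/FGF those of Fosb and Egr1 without any 1 of the 4 BMP/FGF libraries (0.0689 to 0.274), while that of Fos held. Wherever calls were lost in this way, calls over all genes fell too. The BL6 BMP libraries are not among those compared in EGF/FGF or in BMP/FGF. Without either of them Fosl1, Jund and Ier2 also passed the threshold in EGF/FGF, and Fosl2, Junb and Ier2 in BMP/FGF. Their differences did not change: Fosl1 0.696, Jund -0.281 and Ier2 -0.274, then Fosl2 0.365, Junb 0.284 and Ier2 0.416. Calls over all genes rose as well. Fosl1 in EGF/FGF also passed without either ANS4 BMP library (0.701 and 0.696).

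Per kb of transcript the order of the 10 genes changed with state. In EGF/FGF Egr1 (mean 74.0 CPM per kb), Jund (68.0) and Jun (58.8) led, with neighbouring ranges that overlapped, followed by Junb (28.3) and Fos (25.6), which overlapped each other. Ier2 (15.5) stood alone, Fosl2 (3.54), Fosl1 (3.46) and Egr2 (3.13) could not be ordered, and Fosb (0.877) was last. In BMP Fos (118), Junb (102) and Jund (87.1) led, their ranges overlapping, then Egr1 (59.8), whose range overlapped none below it, Jun (25.1) and Ier2 (23.0), which overlapped, and Egr2 (8.38), Fosb (4.93), Fosl2 (3.43) and Fosl1 (0.0441), each apart from the next. In BMP/FGF the first 7 places had the same order as in BMP, from Fos (94.5) to Egr2 (10.1), and Fosb (1.96) came after Fosl2 (3.23). With the median instead of the longest coding transcript length, Egr2 stood at 10.3, 27.6 and 33.1 CPM per kb in the 3 states, since 7 coding models of 356 to 2965 bases are annotated. Its mean then stood above those of Jun and Ier2 in BMP and BMP/FGF and above those of Fosl2 and Fosl1 in all 3 states.

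Related genes gave the setting. Of 36 other immediate early genes, all tested, 10 rose and 21 fell in BMP against EGF/FGF (median -0.41), and 12 rose and 20 fell in BMP/FGF (median -0.37), so that falls outnumbered rises in this list. Zfp36, which encodes the mRNA decay factor tristetraprolin, rose from 10.6 ± 1.95 to 71.3 ± 4.95 CPM (SD, n = 4) in BMP (log2 2.73 ± 0.15, adjusted p = 1.61e-11). Nr4a1, an orphan nuclear receptor, rose from 3.64 ± 0.459 to 15.3 ± 2.85 CPM in BMP/FGF (log2 2.07 ± 0.15, adjusted p = 6.81e-10). The kinase gene Plk2 fell from 204 ± 10.0 CPM to 19 ± 5.09 in BMP and 18.1 ± 0.496 in BMP/FGF. Between BMP and BMP/FGF, 7 rose and 7 fell (median -0.00), led by Klf10, a TGF-beta response factor, at 24.9 ± 1.4 and 44.0 ± 4.15 CPM, and by Ccn2, a matricellular protein gene, at only 0.892 ± 0.424 and 0.473 ± 0.144 (log2 -0.84 ± 0.32, adjusted p = 0.0401). Zfp36 showed a fall of nearly the same size (log2 -0.84 ± 0.14, adjusted p = 0.000114).

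ERK feedback genes, which encode the Dusp, Spry and Spred inhibitors and Etv factors induced by this pathway, mostly fell. Of 14 tested, none rose and 13 fell in BMP (median -1.58), and 1 rose and 13 fell in BMP/FGF (median -1.13). Dusp6, the phosphatase that acts on ERK, fell from 240.0 ± 7.58 CPM to 13.0 ± 1.51 in BMP (log2 -4.22 ± 0.07, adjusted p = 1.67e-17) and 31.2 ± 3.71 in BMP/FGF. The gene that rose in BMP/FGF was Il17rd, an inhibitor of FGF signalling, at 22.1 ± 1.05 and 33.5 ± 2.43 CPM. In BMP/FGF against BMP, 11 of the 14 rose and none fell (median 0.73), led by Etv4 at 4.78 ± 1.6 and 14.4 ± 0.699 CPM.

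Dimer partners and inhibitors were mixed, with 8 of 18 tested rising and 6 falling in BMP and the same numbers in BMP/FGF (medians 0.17 and 0.20). Atf4, a stress-responsive partner, fell from 149 ± 3.61 to 62.2 ± 13.7 CPM in BMP, and Nab2, which represses Egr proteins and is itself an Egr target, from 93.5 ± 7.05 to 38.6 ± 0.905 CPM in BMP/FGF. Ddit3, which encodes CHOP, rose from 9.78 ± 2.13 CPM to 17.8 ± 0.785 in BMP/FGF, above the 13.4 ± 1.3 of BMP. Between BMP and BMP/FGF, 3 of the list rose and 4 fell (median -0.02).

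Upstream kinases and factors moved in both directions. Of 33 tested, 10 rose and 14 fell in BMP, 10 rose and 19 fell in BMP/FGF, and 3 rose and 9 fell in BMP/FGF against BMP, with medians of -0.12, -0.21 and -0.11. The neuronal JNK gene Mapk10 rose from 66.7 ± 1.49 to 149 ± 7.73 CPM in BMP, and Rps6ka5, which encodes the chromatin kinase MSK1, from 28.1 ± 3.16 to 58.1 ± 4.09 in BMP/FGF. Rps6ka1, which encodes the ERK-activated kinase RSK1, fell from 9.51 ± 1.02 CPM to 2.64 ± 0.707 in BMP and 2.36 ± 0.601 in BMP/FGF. In BMP/FGF against BMP the p38 kinase gene Mapk12 rose from 6.85 ± 0.638 to 9.16 ± 0.717 CPM, and Rps6ka2 fell from 97.4 ± 7.79 to 68.8 ± 1.28.

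Textbook targets of AP-1 and Egr factors mostly fell: of 13 tested, 3 rose and 9 fell in BMP (median -0.96), 5 rose and 7 fell in BMP/FGF (median -0.48), and 4 rose and 1 fell in BMP/FGF against BMP (median 0.29). Plaur, the urokinase receptor gene, fell from 3.38 ± 1.07 CPM to 0.0679 ± 0.0674 in BMP and 0.0807 ± 0.0532 in BMP/FGF. Tgfb1 rose from 2.49 ± 0.313 CPM to 4.06 ± 1.49 in BMP and 5.02 ± 0.416 in BMP/FGF. Timp1, a metalloprotease inhibitor gene, rose from 14.3 ± 0.649 to 37.3 ± 2.57 CPM between BMP and BMP/FGF, and Hmox1 fell from 100.0 ± 9.52 to 81.3 ± 4.19.

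**Figure D5:**
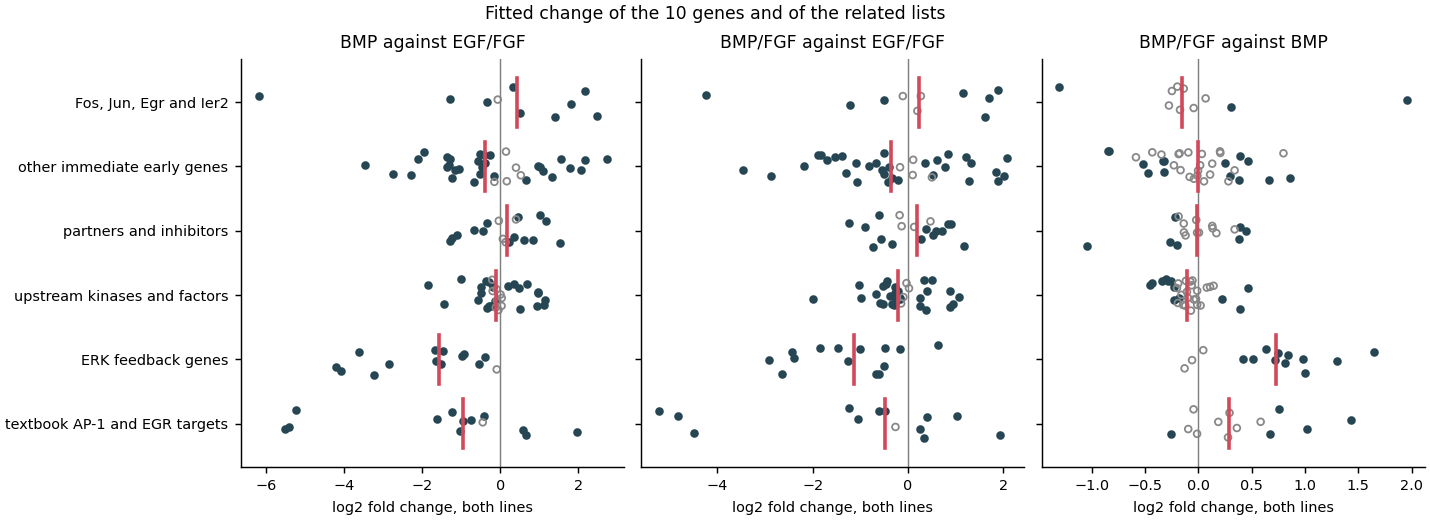
Fitted log2 fold change over both lines (horizontal axis) of the 10 genes and of the genes of 5 related lists (rows) in the 3 contrasts, with filled points for an adjusted p under 0.05, open points for the rest, and red bars for the median. ERK feedback genes all lie left of 0 in the first panel, with a single open point close to it. They have the highest median in the third, at 0.73, while the 10 genes spread to both sides.

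Since stress and handling also induce immediate early genes, 12 heat shock genes were read alongside. They summed to 7760 to 8300 CPM in EGF/FGF, 4520 to 4950 with BMP4 alone and 5090 to 5320 with BMP4 plus FGF2. Of 11 tested, 2 rose and 7 fell in either BMP state against EGF/FGF. Inducible Hspa1b was among those that rose, from 3.29 ± 0.77 CPM to 8.93 ± 0.332 in BMP and 11.5 ± 1.3 in BMP/FGF, while the mitochondrial chaperone gene Hspe1 fell from 168 ± 19 to 48.2 ± 9.66 in BMP and Hspd1 from 601 ± 51.7 to 211 ± 4.65 in BMP/FGF. Against BMP, 3 of these genes rose in BMP/FGF and 1 fell, among them Hspe1 (62.8 ± 9.12) and Dnajb1 (40.7 ± 1.84 to 32.1 ± 2.64). Between the lines in BMP, none of the 11 was higher in BL6 and 2 were lower. The part of handling in the levels of the 10 genes was not tested.

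Across the 12 libraries, Fos, Junb and Egr2 had the most similar log2 CPM profiles, with Pearson correlations of 0.99 between Fos and Junb, 0.95 between Fos and Egr2 and 0.95 between Junb and Egr2. Fosl1 ran against them (-0.97 with Fos), as did Jun (-0.86 with Fos). Jund and Ier2 were paired at 0.90, and Egr1 was closest to Fosl2 at 0.82. These values describe 12 points in 3 states and 2 lines that share the same library totals. Among 12453 genes, the profiles most like that of Fos were those of Gm16576, Lgmn and Igsf10 (r = 0.99 each), those most like Egr1 were Tgif1 (0.95), Zfp69 (0.94) and Pdik1l (0.92), and those most like Fosl1 were Btbd3, Cdc34 and Rai14 (0.99 each).

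The spread between replicates differed among the 10 genes. The pooled SD between replicates on the log2 CPM scale was 0.06 for Fos, 0.07 for Jun, 0.07 for Egr2, 0.10 for Junb and 0.10 for Egr1, beside a median of 0.09 over 9704 genes with at least 10 CPM on average. Fosb (0.15), Jund (0.17) and Ier2 (0.16) varied more than 90.8%, 94.7% and 93.3% of those genes. With a mean of 9.79 CPM, Fosb was itself just under the limit of that set, and low counts add to its spread. Jund and Ier2 differed by 0.46 and 0.47 within the BL6 BMP pair. Fosl1 (0.47) varied more than 99.9% of them, with counts of 10 or fewer outside EGF/FGF.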

How the data were processed

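RNA from 12 cultures was sequenced on a BGISEQ-500. The authors trimmed reads with Trim Galore 0.5.0, quantified them with kallisto 0.44.0 against mm10 transcripts and summed the result per gene, and the deposited counts are whole numbers. They also deposited regularized log2 values from DESeq2 1.27.32, used here only in an alternative test. All 17365 rows named a gene.

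Counts were scaled by TMM, filtered with filterByExpr (13312 genes kept) and tested with edgeR 4.0.16 (R 4.3.3): glmQLFit and glmQLFTest, two-sided, Benjamini-Hochberg over all tested genes, called under 0.05, with cell line as a covariate. Line differences came from 1 fit of the 6 line and state groups. SEs are on the log2 scale and were computed from the fold change and the F statistic of its test. CPM is the count over the library total, and log2 CPM used a prior count of 2. Alternatives included DESeq2 1.42.0, limma 3.58.1 and leaving out each library. The tests were tried on simulated data with known changes. Gene models were GENCODE vM21 (GRCm38).

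Genes were chosen, and lists fixed, with earlier results of these data known. Named list genes were the largest called rise and fall per list and contrast with 1 CPM or more as the average of the 12 libraries. All 10 genes, and the 3 profiles most like Fos, Egr1 and Fosl1, are named, except that a few list and marker genes are not reported here. Library totals were 18069052 to 19451818 counts. A count of 1 was then worth 0.0514 to 0.0553 CPM, which limits Fosl1 outside EGF/FGF. The intervals of count ratios cover counting error only. A planned exact permutation test for genes failing the filter had none to apply to.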

Additional observations from a re-analysis of the deposited data

Results flagged for a closer look

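Egr1 in EGF/FGF had 1 library apart from the other 3 of its group: BL6 replicate 1 stood at 374 CPM, where the others lay between 315 and 320.0. Chance alone sets a library apart by this measure in about 1 group in 20.

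The lines differed in their response by the test of the difference itself (change in BL6 minus change in ANS4, log2, 2 libraries per line and state) in 12 cases. For Fos the difference was 0.803 in BMP against EGF/FGF, 1.186 in BMP/FGF against EGF/FGF and 0.384 in BMP/FGF against BMP. Jun differed by 0.83 in BMP against EGF/FGF and by -0.782 in BMP/FGF against BMP, the latter with opposite directions in the lines. Junb differed by 0.793 and 0.632, and Ier2 by 0.889 and 0.689, in BMP and BMP/FGF against EGF/FGF. Fosb differed by 1.011 in BMP/FGF against EGF/FGF and by 0.669 against BMP, and Jund by 0.648 in BMP against EGF/FGF. The contrasts share libraries, so these cases are not independent of each other.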

How the results depend on the processing

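Of the values of single genes under the alternatives, 1510 kept their side of the threshold, 61 lost a call, 46 gained one and 1 reversed with a call. Values called in neither setting are among the 1510 even where their sign changed. Jund in BMP/FGF against BMP, for example, went from -0.136 to 0.026 without the second BL6 BMP library. The reversal was Jun in BMP/FGF against BMP with BL6 libraries only (-0.296, adjusted p = 0.00593). Of the counts of called genes, 280 stayed within 1.5 times the value reported and 44 moved. In BMP/FGF against BMP, 2 genes were lower with library size only as scaling and with only the 8 libraries compared, 1 was higher by limma on the deposited log2 values, 1 was higher and 3 lower with ANS4 alone, and 3 were lower with BL6 alone. For the line differences, 7 were higher in BMP/FGF against EGF/FGF with the 8 libraries compared, and 1 was higher in BMP/FGF against BMP by DESeq2. With library size only, an alternative chosen after seeing the data, 1 gene was higher in BL6 than in ANS4 in EGF/FGF. The cause of these moves was not tested. With that scaling the share of higher among all called line differences moved from 59.8 to 71.0% in BMP against EGF/FGF, from 63.3 to 46.1% in BMP/FGF against EGF/FGF and from 49.3 to 28.0% in BMP/FGF against BMP. Leaving out 1 library at a time, which leaves an arm with a single library that is assumed to vary like the others, gave 1 to 2 higher and 1 to 2 lower genes in BMP/FGF against BMP. For the line differences it gave 1 to 6 higher in BMP/FGF against EGF/FGF, and 0 to 3 higher and 1 to 4 lower in BMP/FGF against BMP. Between lines it gave 0 to 1 higher and 1 to 4 lower in EGF/FGF, 3 to 6 higher in BMP and 1 to 6 higher in BMP/FGF.

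Samples with the same replicate number showed little joint deviation over all tested genes (r from -0.07 to 0.05). Over well expressed genes r ran from -0.18 to 0.31, the highest between ANS4 EGF/FGF and ANS4 BMP. These correlations do not settle whether the numbers pair samples. With the replicate block the counts of higher and lower genes were 6 and 3 in BMP against EGF/FGF, 4 and 3 in BMP/FGF against EGF/FGF and 2 and 1 in BMP/FGF against BMP, as without it.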
